A study of Ovis aries with 9 samples.

Results

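The SLC2A genes encode the facilitative glucose transporters (GLUTs) and a related inositol carrier, and they were followed here in sheep granulosa cells (GCs) supplied with 3 amounts of glucose. The members were SLC2A1, SLC2A3, SLC2A4, SLC2A6, SLC2A8, SLC2A10, SLC2A12 and SLC2A13, each taken as the row of that symbol in the gene table. All 8 were found, each with a single row, among 39157 genes. All 8 also passed the filter on low values, as did 23397 genes altogether. GCs of thin-tailed Han sheep had been held for 8 h without glucose and serum and then for 24 h with 0 mM glucose (CON), 8.4 mM (LOW) or 33.6 mM (HIGH), with 3 RNA-seq libraries in each group. CON cells therefore received no added glucose in either period, and the 8 h deprivation was common to every group. The cells came from follicles of many ovaries that were pooled before plating. The p-values therefore measure the spread between cultures of pooled cells and not between single animals. Whether all cultures came from the same pool is not given in the sources used here.

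GLUTs move glucose down its gradient across a membrane, so that uptake depends on how much transporter the cell makes and on how much of it lies at the surface. Once inside, glucose is phosphorylated by hexokinases and can no longer leave by the same route. In the follicle, GCs break glucose down to pyruvate and lactate, which the oocyte takes up as fuel. Members of the family differ in where they sit: some are surface carriers, others are held on vesicles or lysosomes, and GLUT4 moves to the surface in response to insulin.

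Levels are given as FPKM, the number of fragments per kilobase relative to library size, which allows comparison between genes. By the factors that link the deposited tables, an FPKM of 1 stood nominally for 48.0 to 71.3 fragments per kilobase. Values below about 0.3 would then rest on few fragments. These numbers are nominal, since the factors were not checked against sequenced reads. The label of the cells was checked against markers. Of 13 granulosa genes listed, 9 were found in the gene table and 7 of these were at FPKM of 1 or more in every library, INHA, NR5A1 and GJA1 among them. FSHR, the receptor for follicle-stimulating hormone, was at 0.218 to 0.564 and HSD17B1 at 0.107 to 0.620. CYP19A1, AMH and FOXL2 were listed but had no row under these symbols, so their levels were not analysed here. Of 12 genes listed for theca and stroma, all were found and 10 were at FPKM of 1 or more in every library. These 12 genes summed to 5334 to 6744 FPKM over the CON cultures, 5445 to 5758 over LOW and 4715 to 5870 over HIGH, led by LUM and TAGLN. Their sums were far above those of the granulosa genes given below, so the markers do not by themselves settle the label of the cells. The theca enzyme CYP17A1 stayed at or below 0.412 and INSL3 at or below 0.0843. Some lists, summed on the FPKM as deposited, were lower in HIGH than in CON without overlap. Among all single genes on the scaled values, 4.55% were lower without overlap in that comparison, and for sums of lists no such share was computed. Not every gene of these lists was lower without overlap: FST and PTGFR overlapped between CON and HIGH. The granulosa genes, led by GJA1 at a mean of 50.6, summed to 121 to 140.3 FPKM over the CON cultures, 104 to 121 over LOW and 96.9 to 106 over HIGH. Genes of luteinized cells, led by CYP11A1, which opens steroid synthesis, summed to 194 to 218, 167 to 179 and 150.2 to 171 in the same order. Epithelial genes, led by KRT8 at 5.55 to 17.5, summed to 14.7 to 21.1, 13.8 to 16.4 and 8.26 to 12.1. Their part in the differences between groups was not tested. Markers of endothelial cells summed to at most 0.857 and those of leukocytes to 15.4 to 21.9. Of the oocyte genes, GDF9 was at 0.533 to 0.863 and BMP15 was listed at 0 throughout, as was ALAS2 of red cells. A pair of libraries stood apart: 15.0% of all tested genes had their lowest level in the third CON culture and their highest in the first HIGH culture, and 11.3% had the opposite extremes.

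The repertoire was dominated by SLC2A1, which encodes GLUT1, the carrier of basal glucose uptake in most cells. Its mean over the 9 libraries was 42.8 FPKM, above 92.3% of the 11360 tested genes with a symbol. SLC2A8 (mean 11.4) and SLC2A13 (11.4) followed, then SLC2A6 (4.44), SLC2A10 (3.65), SLC2A3 (1.28), SLC2A12 (0.286) and SLC2A4 (0.119). SLC2A1 exceeded SLC2A8 in 9 of 9 libraries, by 3.74 times on the ratio of means. SLC2A8 and SLC2A13 could not be ordered, since SLC2A8 was the higher in 5 of 9 libraries. SLC2A6 was above SLC2A10 in 8 of 9, by a ratio of only 1.22. Every other step of the order, down to SLC2A12 over SLC2A4, held in 9 of 9 libraries. SLC2A1 alone made up 51.6 to 64.7% of the summed FPKM of the 8 genes.

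**Figure D1:**
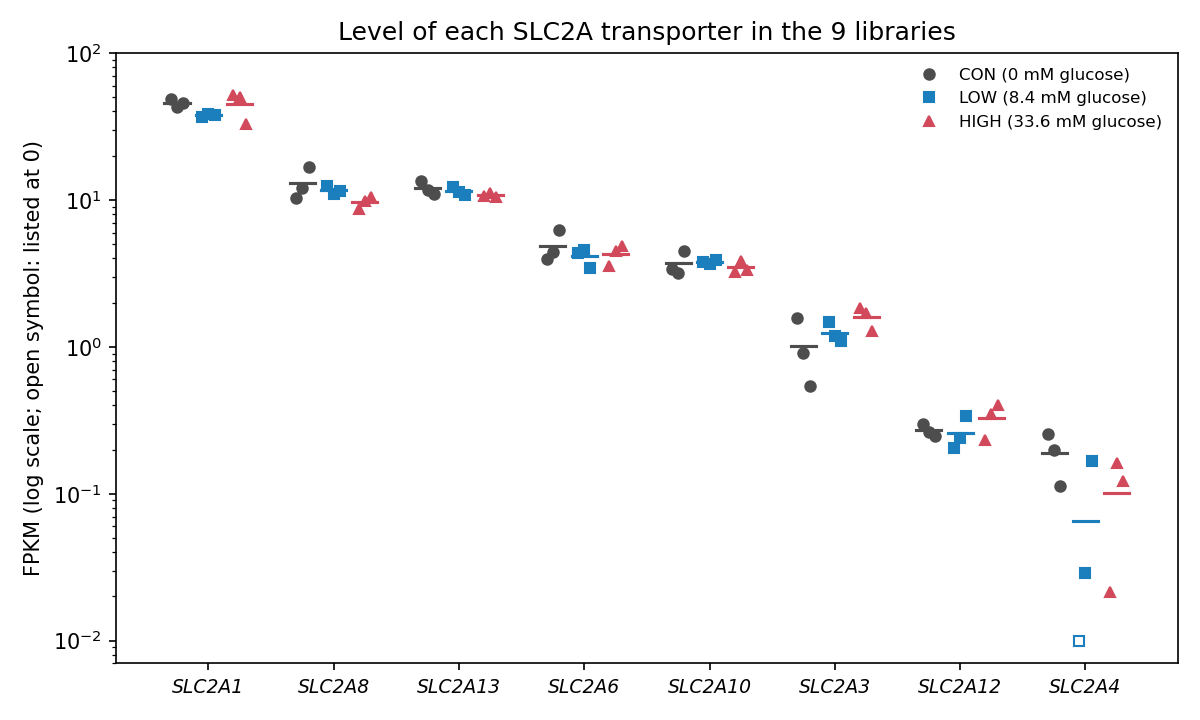
FPKM of each SLC2A transporter (log axis) in every library, with circles for CON, squares for LOW, triangles for HIGH and a short line at each group's mean. SLC2A1 lies above the other 7 genes in all libraries, SLC2A4 is listed at 0 in 1 LOW library (open symbol), and the groups overlap for most genes.

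No member differed between glucose groups after adjustment over all genes. Differences were tested with limma, which fits linear models and shares information on variance between genes. It was run on log2(FPKM + 0.1) with each library brought to a common median, and a call needed a Benjamini-Hochberg adjusted p below 0.05. The number of members called was 0 of 8 in LOW versus CON, in HIGH versus CON and in HIGH versus LOW. Calls were rare among all genes too, at 0.00427%, 0.00855% and 0.00427% of those tested in the same order. Without adjustment, p was below 0.05 for 0, 1 and 0 members, against 2.06%, 6.64% and 6.91% of all genes. The median log2 fold change of the 8 members was -0.02 in LOW versus CON, -0.09 in HIGH versus CON and 0.08 in HIGH versus LOW. Over all genes the corresponding medians were 0.01, 0.07 and 0.05. LOW versus CON and HIGH versus CON share the CON libraries and are not independent.

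**Figure D2:**
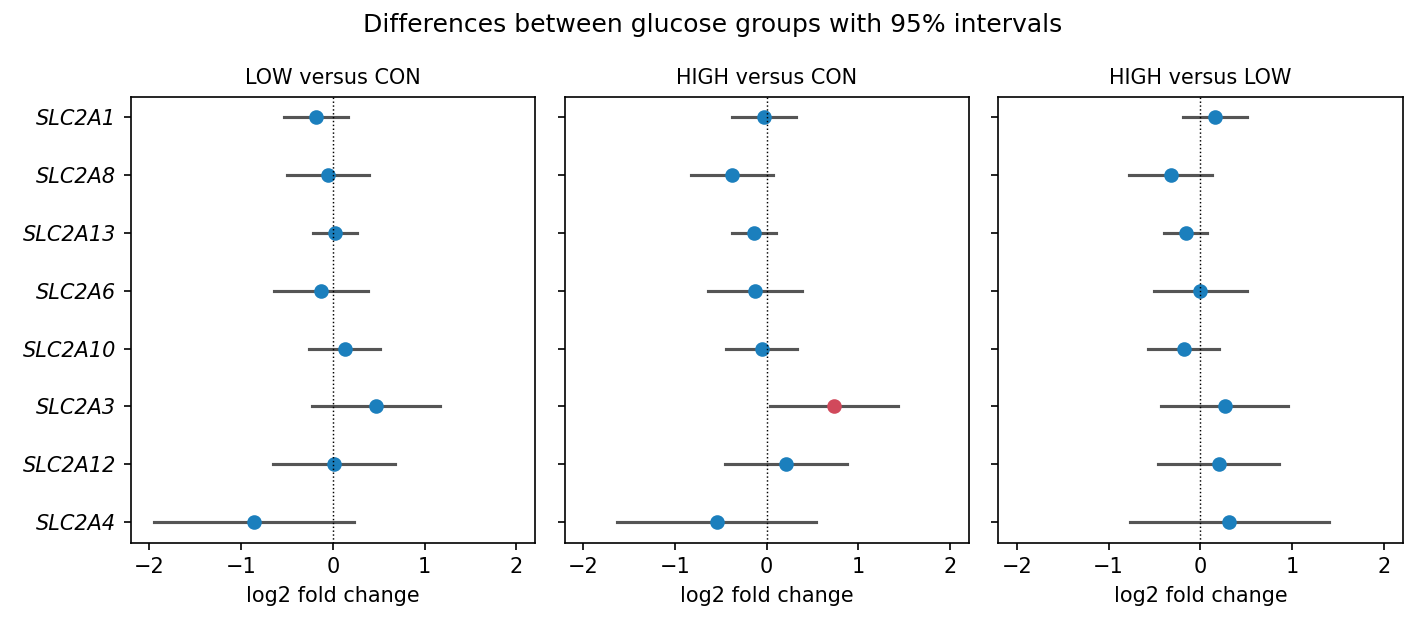
Log2 fold changes of the 8 transporters (points) with 95% intervals (bars) in the 3 comparisons, positive where the first-named group is higher. A red point marks an unadjusted p below 0.05, reached by SLC2A3 in HIGH versus CON alone among these 24 values, and no adjusted p was below 0.05.

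SLC2A1 (ENSOARG00000020471, 1:17151598-17168082 in the authors' annotation) stood at 48.8, 43.1 and 45.4 FPKM in the CON cultures, at 37.0, 38.4 and 38.1 in the LOW cultures and at 51.9, 50.0 and 32.9 in the HIGH cultures. The LOW cultures were closely grouped and lay below all 3 CON cultures, while the HIGH cultures spread across both groups because 1 of them was the lowest of the 9. Means were 45.8 ± 2.88 in CON, 37.8 ± 0.760 in LOW and 44.9 ± 10.4 in HIGH (SD, n = 3 each). The log2 fold change was -0.18 in LOW versus CON (SE 0.15, limma adjusted p = 1), -0.03 in HIGH versus CON (adjusted p = 0.959) and 0.16 in HIGH versus LOW (adjusted p = 0.736). The 95% interval of HIGH over CON ran from 0.771-fold to 1.25-fold. The interval of LOW over CON ran from 0.691-fold to 1.12-fold. For SLC2A1, a change of 1.5-fold in either direction lies outside the interval of HIGH versus CON, while smaller differences of either sign lie within it. Over the alternatives HIGH versus LOW ran from -0.16 to 0.34, the highest without the third HIGH culture (limma adjusted p = 0.290), and without the first HIGH culture it was 0.04.

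Among 9230 genes with a symbol and mean FPKM of at least 1, those whose log2 level followed SLC2A1 most closely over the 9 libraries were ANKH (r = 0.981), JAG1 (r = 0.956) and SH3BP5 (r = 0.946). ANKH is a membrane protein of pyrophosphate and ATP release, JAG1 is a Notch ligand and SH3BP5 binds SH3 domains. Altogether 10 genes had r above 0.9. These coefficients describe 9 libraries that share their scaling, and were chosen as the highest of many.

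SLC2A3 encodes GLUT3, a surface carrier of high glucose affinity best known from neurons. SLC2A3 (ENSOARG00000002234, 3:206193144-206206504) was at 1.57, 0.911 and 0.542 FPKM in the CON cultures, at 1.47, 1.19 and 1.10 in the LOW cultures and at 1.82, 1.69 and 1.27 in the HIGH cultures. CON held the 2 lowest values of the 9 but also the third highest, so that all 3 groups overlapped. Means were 1.01 ± 0.522 in CON, 1.25 ± 0.193 in LOW and 1.59 ± 0.287 in HIGH (SD, n = 3 each).

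The SLC2A3 difference of HIGH over CON was 0.73 on the log2 scale (SE 0.31, 95% interval 0.04 to 1.43), or 1.66-fold. It did not pass adjustment (limma adjusted p = 0.692). LOW over CON was 0.47 (adjusted p = 1) and HIGH over LOW was 0.27 (adjusted p = 0.764), both with intervals that include 0. Without the third CON culture, the lowest of the 9, HIGH over CON was 0.42 (95% interval -0.14 to 0.99, limma adjusted p = 0.999). Without the first CON culture it was 1.04 (0.45 to 1.64, limma adjusted p = 0.189). Without the first HIGH culture it was 0.63 (limma adjusted p = 0.979). Where the first CON culture was left out, 5576 of 22825 genes also had unadjusted p below 0.05, against 1554 of 23397 with all libraries.

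SLC2A8 encodes GLUT8, a transporter held mainly on intracellular membranes. SLC2A8 (ENSOARG00000012161, 3:8658504-8667340) was at 10.3, 12.0 and 16.8 FPKM in the CON cultures, at 12.4, 11.0 and 11.4 in the LOW cultures and at 8.70, 9.81 and 10.5 in the HIGH cultures. Every HIGH culture was below every LOW culture, while the lowest CON culture fell inside the HIGH range. Means were 13.1 ± 3.35, 11.6 ± 0.701 and 9.66 ± 0.895 (SD, n = 3 each).

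The log2 fold change of SLC2A8 was -0.05 in LOW versus CON (limma adjusted p = 1), -0.38 in HIGH versus CON (SE 0.20, 95% interval -0.83 to 0.07, adjusted p = 0.692) and -0.33 in HIGH versus LOW (SE 0.20, adjusted p = 0.691). Leaving out the third CON culture, the highest of the 9, brought HIGH versus CON to -0.15 (adjusted p = 0.999). Leaving out the first brought it to -0.57 (95% interval -0.97 to -0.18, limma adjusted p = 0.189). Without the first HIGH culture it was -0.31 (adjusted p = 0.979). The values of SLC2A3 and SLC2A8 in HIGH versus CON thus depended on which CON cultures were counted.

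A single alternative changed the call for both genes. With the GC content of each library's reads as a covariate, SLC2A3 was higher in HIGH than in CON (log2 fold change 1.10, limma adjusted p = 0.0176) and SLC2A8 lower (-0.61, adjusted p = 0.0210). That fit called 2 of the 8 members, and 21.3% of all genes, against 0.00855% without the covariate. The members were thus called about as often as genes at large in that fit.

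**Figure D3:**
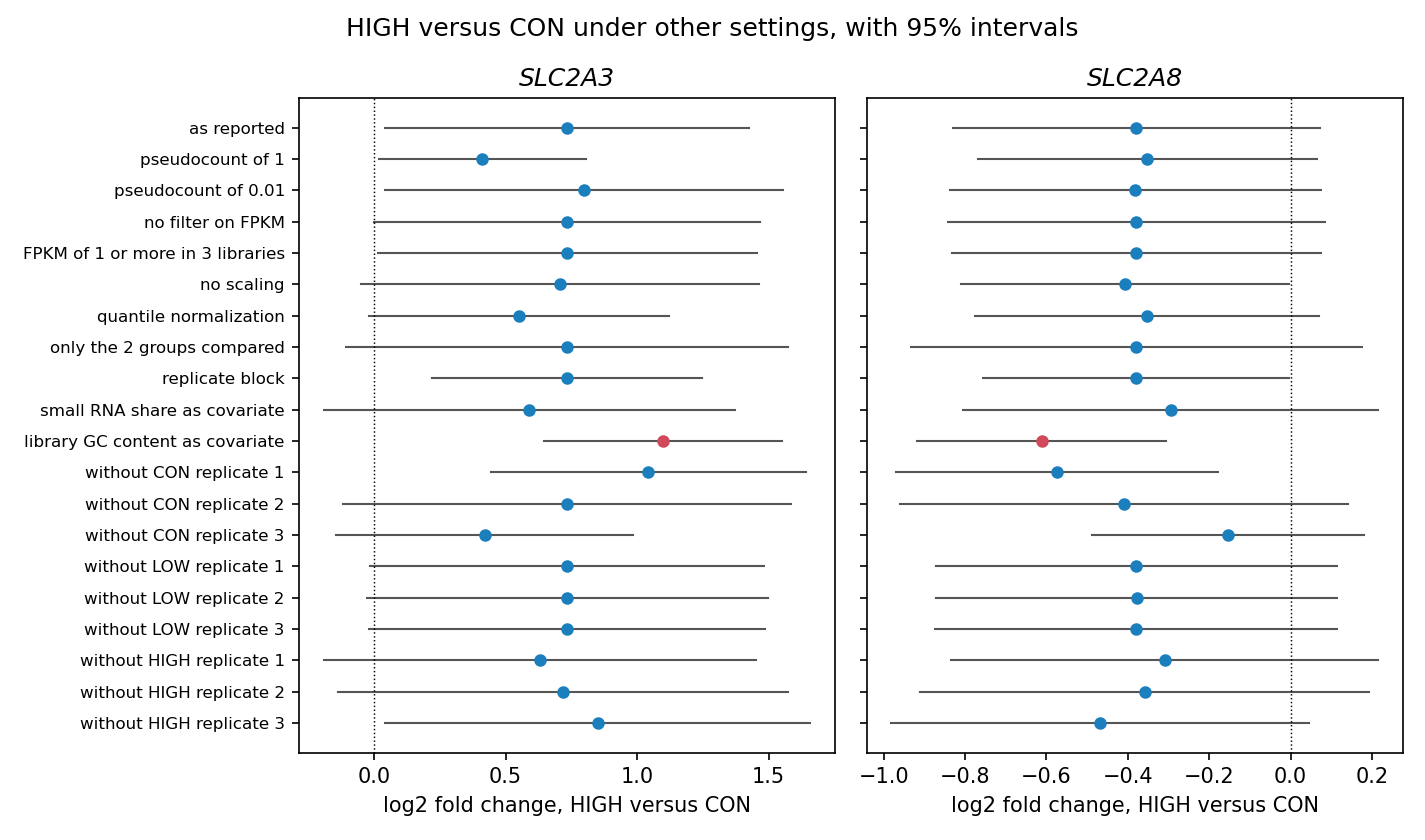
Log2 fold change of HIGH versus CON (horizontal axis, with 95% intervals) for SLC2A3 and SLC2A8 as reported and under each alternative. Red marks an adjusted p below 0.05, reached with library GC content as covariate only. Values run from 0.41 to 1.10 for SLC2A3 and from -0.61 to -0.15 for SLC2A8.

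Across the 9 libraries, SLC2A3 and SLC2A8 varied in opposite directions. Pearson's r of their log2 levels was -0.896 (exact permutation p = 0.00173, two-sided, adjusted p = 0.0485 over 28 pairs of members). The permutation treated the 9 libraries as exchangeable, without regard to group or replicate number. Among all genes, 15.0% had their extremes in the same libraries as SLC2A3 and 11.3% as SLC2A8. How many pairs among all genes reach such an r was not computed. Spearman's rho was -0.733 (exact permutation p = 0.0311, adjusted p = 0.621). When the third CON and the first HIGH culture were left out, the 2 libraries most distant from the SLC2A8 median, r was -0.576 (exact permutation p = 0.172). Leaving out the extremes of a correlated gene can lower r by itself, so this does not show whether the relation rests on those libraries. After removal of group means r was -0.937. Another 3 pairs had p below 0.05 and none of them passed adjustment: SLC2A8 with SLC2A10, SLC2A8 with SLC2A6 and SLC2A6 with SLC2A3. Without the same libraries their r was 0.440, 0.197 and -0.0272.

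**Figure D4:**
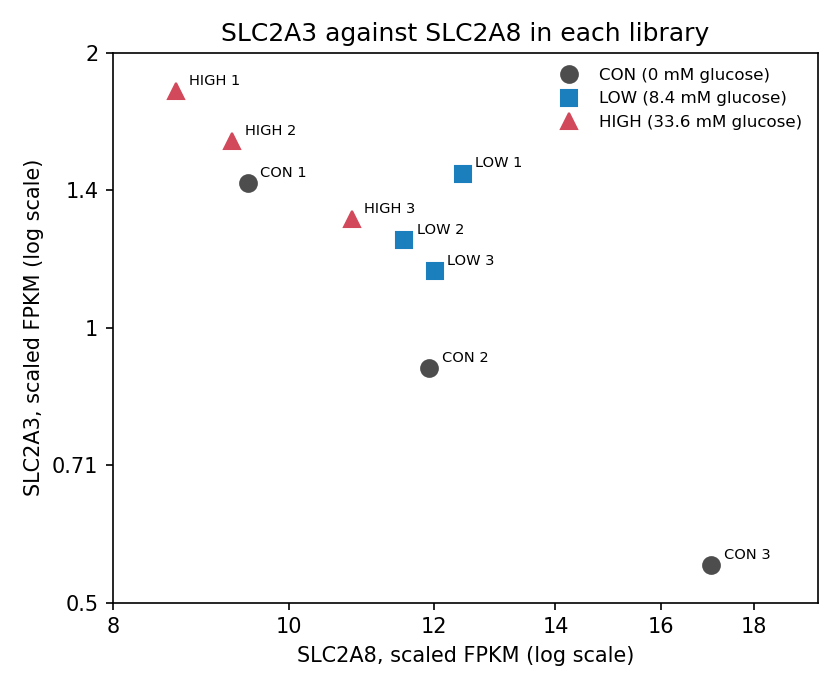
Scaled FPKM of SLC2A3 against SLC2A8, both on log axes, with 1 labelled point per library. The third CON culture lies at high SLC2A8 and low SLC2A3 and the first HIGH culture at the opposite end, and the LOW cultures cluster between them.

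The ratio of the 2 genes inside a library, which needs no scaling between libraries, varied most in CON. SLC2A8 exceeded SLC2A3 by 6.58 to 31.0 times in the CON cultures, by 8.44 to 10.4 times in the LOW and by 4.77 to 8.23 times in the HIGH cultures. SLC2A1 exceeded SLC2A3 by 31.1 to 83.8 times in the CON cultures, by 25.2 to 34.7 times in the LOW and by 25.9 to 29.6 times in the HIGH cultures. Thus the SLC2A1 to SLC2A3 ratio in all 3 HIGH cultures was below that of all 3 CON cultures, and the LOW cultures overlapped both groups. The gap between HIGH and CON was narrow, from 29.6 to 31.1. How many ratios of other gene pairs separate these groups was not computed.

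Genes outside the family had their extremes in the same libraries. HK1, the hexokinase of most tissues, was at 16.7, 9.82 and 4.52 FPKM in the CON cultures, at 9.11, 7.78 and 7.75 in the LOW cultures and at 22.6, 17.3 and 10.2 in the HIGH cultures. IGF1R, the receptor for insulin-like growth factor 1, was at 26.0, 15.1 and 7.59 in the CON cultures, at 16.4, 12.2 and 11.5 in the LOW cultures and at 40.6, 27.8 and 15.2 in the HIGH cultures. Both share with SLC2A3 the lowest value in the third CON culture and the highest in the first HIGH culture. COL1A1, a collagen of the stroma list, was at 35.1, 28.6 and 15.8 in CON and at 127, 76.5 and 37.1 in HIGH. TAGLN, a smooth muscle gene of that list, was highest in the third CON culture at 2771 FPKM and lowest in the first HIGH culture at 926. Of the 11 tested genes of the theca and stroma list, 4 (COL1A1, COL1A2, PDGFRA and MYH11) had their extremes as SLC2A3 did and 3 (DCN, ACTA2 and TAGLN) as SLC2A8 did. Of the 9 granulosa genes, 0 had them as SLC2A3 and 2, INHA and GJA1, as SLC2A8. Of the 13 tested genes of insulin and IGF signaling, 6 had them as SLC2A3 and 1 as SLC2A8. The counts were 5 and 7 of 36 for GLUT trafficking, 1 and 0 of 12 for other sugar transporters, 2 and 1 of 5 for trapping enzymes and 0 and 0 of 5 for lactate and pyruvate carriers. Among all genes the shares were 15.0% and 11.3%. The part of cell composition in the SLC2A3 and SLC2A8 values was not tested, and in bulk RNA fewer cells of a type and less RNA per cell cannot be told apart.

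SLC2A13 encodes HMIT, which carries myo-inositol together with protons. SLC2A13 (ENSOARG00000019998, 3:146918912-147430624) was the steadiest member, with a coefficient of variation of 8.27% over the 9 libraries. It was at 13.4, 11.7 and 11.0 FPKM in the CON cultures, at 12.3, 11.3 and 10.9 in the LOW cultures and at 10.7, 11.1 and 10.4 in the HIGH cultures. Group means of the deposited FPKM were 12.1 ± 1.25, 11.5 ± 0.751 and 10.7 ± 0.318 (SD, n = 3 each). On the scaled values, on which LOW was not below CON, the log2 fold change was 0.02 in LOW versus CON (limma adjusted p = 1), -0.14 in HIGH versus CON (adjusted p = 0.692) and -0.16 in HIGH versus LOW (adjusted p = 0.694). The interval of HIGH over CON, 0.773-fold to 1.07-fold, was the narrowest of the members.

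SLC2A6 encodes GLUT6, a transporter of lysosomal membranes. SLC2A6 (ENSOARG00000003228, 3:2449916-2458966) was at 3.98, 4.39 and 6.24 FPKM in the CON cultures, at 4.37, 4.59 and 3.45 in the LOW cultures and at 3.57, 4.50 and 4.89 in the HIGH cultures. The 3 groups overlapped. The log2 fold change was -0.13 in LOW versus CON (SE 0.23, limma adjusted p = 1) and -0.13 in HIGH versus CON (SE 0.23, adjusted p = 0.846). The interval of HIGH over LOW ran from 0.702-fold to 1.42-fold. Group means were 4.87 ± 1.20, 4.14 ± 0.601 and 4.32 ± 0.676 (SD, n = 3 each).

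SLC2A10 encodes GLUT10, known from arterial tortuosity syndrome, a disorder of connective tissue. SLC2A10 (ENSOARG00000009200, 13:74938789-74963444) was at 3.41, 3.21 and 4.51 FPKM in the CON cultures, at 3.76, 3.69 and 3.89 in the LOW cultures and at 3.23, 3.82 and 3.36 in the HIGH cultures. The third CON culture was the highest, as for SLC2A8 and SLC2A6, and the group means were 3.71 ± 0.701, 3.78 ± 0.103 and 3.47 ± 0.311 (SD, n = 3 each). The log2 fold change was 0.13 in LOW versus CON (SE 0.17, limma adjusted p = 1), -0.05 in HIGH versus CON (adjusted p = 0.922) and -0.18 in HIGH versus LOW (adjusted p = 0.729).

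Both members linked to insulin-responsive uptake were at the bottom of the order. SLC2A12 (ENSOARG00000014685, 8:59168055-59234840), which encodes GLUT12, was at 0.299, 0.262 and 0.248 FPKM in the CON cultures, at 0.204, 0.241 and 0.336 in the LOW cultures and at 0.232, 0.350 and 0.399 in the HIGH cultures. The groups overlapped, and the log2 fold changes in LOW versus CON, HIGH versus CON and HIGH versus LOW were 0.01, 0.21 and 0.20 (SE 0.29 each, limma adjusted p = 1, 0.800 and 0.813).

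SLC2A4 encodes GLUT4, the carrier of muscle and fat that insulin brings to the surface. SLC2A4 (ENSOARG00000011448, 11:26615572-26620086) was at 0.256, 0.200 and 0.114 FPKM in CON, was listed at 0 in the first LOW culture and at 0.0291 and 0.167 in the others, and was at 0.0215, 0.161 and 0.122 in HIGH. The highest of these values stands nominally for 18.3 fragments per kilobase. The log2 fold change of -0.86 in LOW versus CON (SE 0.48, limma adjusted p = 1) had an interval from 0.260-fold to 1.17-fold. A 2-fold decrease lies within that interval, and the value ran from -2.14 to -0.15 over the alternatives. HIGH versus CON was -0.54 and HIGH versus LOW was 0.32 (SE 0.48 each, limma adjusted p = 0.700 and 0.816).

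Groups without overlap were counted on the scaled FPKM. In LOW versus CON, 1 of 8 members, SLC2A1, was lower in all LOW than in all CON cultures, against 3.11% of all genes. In HIGH versus CON, 1 member, SLC2A13, was lower without overlap, against 4.55%. In HIGH versus LOW, 3 members, SLC2A8, SLC2A10 and SLC2A13, were lower without overlap, against 7.47%. No member was higher without overlap in these comparisons, against 3.34%, 5.27% and 10.5% of all genes. On the FPKM as deposited, SLC2A13 and SLC2A10 overlapped between groups, and SLC2A1 and SLC2A8 did not. An exact permutation test of 3 against 3 libraries cannot go below 0.10.

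The 8 genes were represented by 12 transcripts, of which 5 members had a single one, and none of the transcripts was called in any comparison. Among all 38382 transcripts tested, 0.0234% were called in LOW versus CON, 0.0234% in HIGH versus CON and 0.0261% in HIGH versus LOW. For SLC2A6, the annotated transcript SLC2A6-201 (mean 3.63 FPKM) carried 77.1 to 92.1% of the gene's FPKM in each library. For SLC2A10, SLC2A10-201 (mean 3.47 FPKM) carried 90.6 to 98.8%.

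The SLC2A13 value summed the coding transcript SLC2A13-201 and an assembled antisense transcript, SLC2A13-AS1 (3:147028138-147094864). SLC2A13-201 was at 12.3, 11.3 and 11.0 FPKM in the CON cultures, at 12.3, 11.0 and 10.9 in the LOW cultures and at 10.0, 10.3 and 9.78 in the HIGH cultures. Its log2 fold change in HIGH versus LOW was -0.23 (SE 0.10, limma adjusted p = 0.743). SLC2A13-AS1 was at 1.11, 0.425 and 0 FPKM in CON, was listed at 0 in 2 LOW cultures and at 0.311 in the other, and was at 0.647, 0.770 and 0.648 in HIGH. Every HIGH culture exceeded every LOW culture, and the difference did not pass (limma adjusted p = 0.721). Among all genes, 10.5% were higher without overlap in HIGH than in LOW on the scaled values. The strand of the reads was not given in the sources used here, so that reads of a gene and of its antisense partner cannot be told apart.

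The genes that act around the transporters were read from 5 lists with 71 tested genes in all. The number called was 0 in each comparison, and 5, 5 and 4 genes had unadjusted limma p below 0.05 in LOW versus CON, HIGH versus CON and HIGH versus LOW. Among all genes the shares were 2.06%, 6.64% and 6.91%. Of the genes with p below 0.05, 3, 4 and 3 were higher in the first-named group.

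In the list of genes that control GLUT trafficking, 36 of 38 genes were tested, and CLTC, the clathrin heavy chain, had a mean of 149.9 FPKM. TXNIP encodes an arrestin-like protein that binds GLUT1 and lowers glucose uptake, and its transcription is known to follow glucose supply. TXNIP was at 76.2, 90.4 and 103 FPKM in the CON cultures, at 211, 216 and 218 in the LOW cultures and at 180, 215 and 207 in the HIGH cultures. All 6 cultures with glucose were above the 3 CON cultures, with a log2 fold change of 1.36 in LOW versus CON (95% interval 1.00 to 1.71) and 1.19 in HIGH versus CON (0.84 to 1.55). The limma adjusted p over all genes was 0.121 and 0.155, and both calls changed with the settings. It was 0.00138 and 0.000549 with quantile normalization, 0.0111 and 0.0174 with GC content as covariate and 0.0286 and 0.0307 without the third CON culture. Fitted among transcripts, TXNIP-201 passed in LOW versus CON (limma adjusted p = 0.0394) and missed in HIGH versus CON (adjusted p = 0.0543).

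ARRDC4, a relative of TXNIP with a like effect on uptake, was at 17.6, 14.3 and 12.1 FPKM in the CON cultures, at 34.6, 28.7 and 28.5 in the LOW cultures and at 45.7, 39.1 and 27.6 in the HIGH cultures. All 6 cultures with glucose were again above CON, by 1.15 (limma adjusted p = 0.470) and 1.36 (adjusted p = 0.155) on the log2 scale for LOW and HIGH. On the scaled values, 3.34% of all genes were higher without overlap in LOW than in CON and 5.27% in HIGH than in CON. HIGH versus CON passed for ARRDC4 with GC content as covariate (adjusted p = 0.0174). TXNIP and ARRDC4 did not differ between HIGH and LOW beyond their spread (log2 fold changes -0.16 and 0.21, adjusted p = 0.731 and 0.715).

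**Figure D5:**
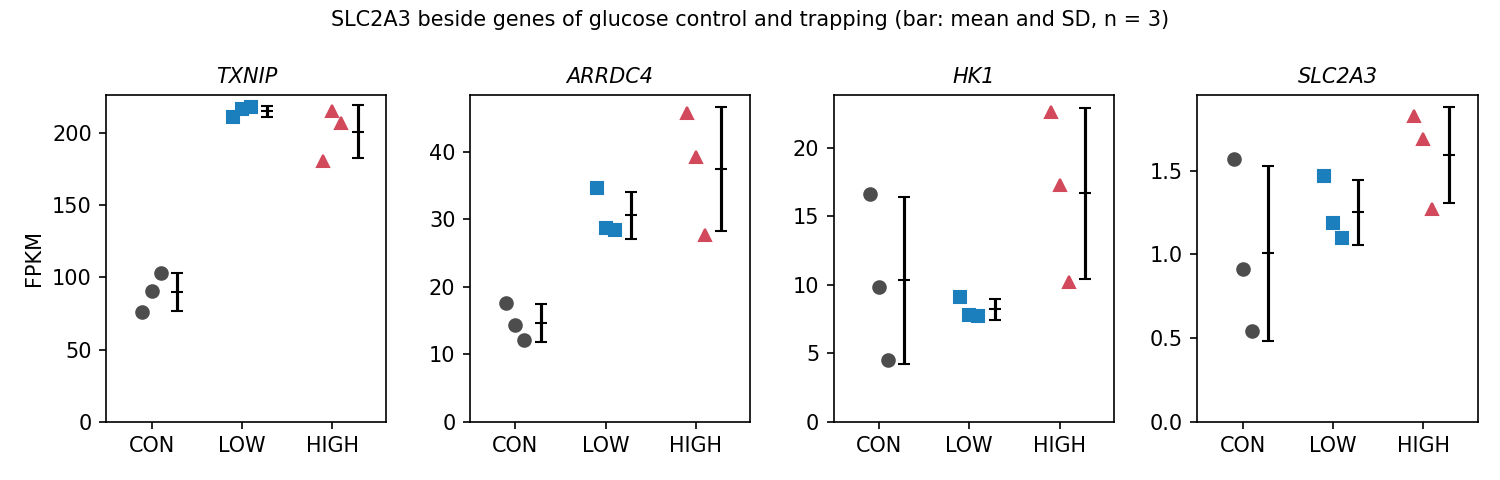
FPKM of TXNIP, ARRDC4, HK1 and SLC2A3 in the 9 libraries by group, each panel with its own axis from 0, with mean and SD (n = 3) beside the points. TXNIP and ARRDC4 are separated between CON and the groups with glucose, whereas SLC2A3 and HK1 overlap between CON and HIGH.

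Of 22 other sugar transporters listed, 12 were tested and 0 were called. SLC37A3, a sugar phosphate carrier family member, had the highest mean at 11.3 FPKM, about that of SLC2A8. SLC5A3, the sodium-coupled myo-inositol transporter, had a mean of 5.93, and SLC2A9, the urate transporter of the GLUT family, one of 1.18. SLC45A4 was at 1.87, 1.40 and 1.37 FPKM in CON and at 2.68, 2.91 and 1.86 in HIGH (log2 fold change 0.67, limma adjusted p = 0.692). SLC5A1, the sodium-glucose cotransporter SGLT1, was listed at 0 in 5 of the 9 libraries and reached 0.521 at most. SLC2A2 and SLC2A5, the carriers of liver and of fructose, stayed at or below 0.0366 and 0.106.

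Among the enzymes that trap glucose in the cell, 5 of 11 listed genes were tested and 0 were called. ADPGK, the ADP-dependent glucokinase, was the highest at a mean of 32.2 FPKM. HK2, the inducible hexokinase, was at 5.43, 2.76 and 1.45 in the CON cultures, at 2.44, 1.79 and 1.92 in the LOW cultures and at 9.52, 4.72 and 2.53 in the HIGH cultures. The HIGH cultures were all above the LOW cultures (log2 fold change 1.16, SE 0.50, limma adjusted p = 0.687), with the widest spread in HIGH and CON. Such a separation was found for 10.5% of all genes on the scaled values. HK1 differed by 0.88 in the same comparison (adjusted p = 0.687).

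Among carriers of lactate and pyruvate, 5 of 8 listed genes were tested. SLC16A3, the lactate exporter MCT4, was at 4.38, 3.67 and 3.69 FPKM in the CON cultures, at 4.48, 5.24 and 5.27 in the LOW cultures and at 7.61, 5.66 and 5.18 in the HIGH cultures. CON did not overlap with either group given glucose, and HIGH versus CON was 0.65 on the log2 scale (SE 0.17, limma adjusted p = 0.692). Of all genes, 3.34% in LOW versus CON and 5.27% in HIGH versus CON were higher without overlap on the scaled values. MPC2, a subunit of the mitochondrial pyruvate carrier, averaged 53.1 FPKM and its partner MPC1 averaged 7.42. EMB, a chaperone of lactate carriers, reached 0.329 at most.

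Of the genes that carry the insulin and IGF signal to the transporters, 13 of 18 listed were tested and 0 were called. PIK3CA, a catalytic subunit of PI3-kinase, averaged 44.8 FPKM and IRS1, the docking protein of the insulin receptor, averaged 24.7. PDPK1, the kinase that activates AKT, was at 11.0, 10.3 and 10.7 in the CON cultures, at 8.54, 8.82 and 7.69 in the LOW cultures and at 11.0, 10.8 and 9.75 in the HIGH cultures. LOW lay below both other groups for PDPK1, with log2 fold changes of -0.26 in LOW versus CON (limma adjusted p = 1) and 0.27 in HIGH versus LOW (adjusted p = 0.687). Among all genes on the scaled values, LOW lay below CON without overlap for 3.11% and below HIGH for 10.5%.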

How the data were processed

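RNA of sheep GCs was sequenced by the authors after removal of ribosomal RNA, in 9 libraries. The authors aligned the reads with HISAT2, assembled transcripts with StringTie and deposited FPKM per gene and per transcript; the submitters' processing notes also name TopHat2, STAR 2.5.1b and HTSeq 0.6.0. For the coordinates, the build is not given in the sources used here. The deposited whole-number tables were treated as a score: checked over 13840 to 16690 transcripts per library, 100% of their values lay within 3 percent of FPKM times genomic span times a factor per library. They hold no numbers of reads, so no count test was run. They gave only a nominal depth, 48.0 to 71.3 fragments per kilobase at FPKM of 1, which was not checked against sequenced reads. Their number of columns without a sample was 0.

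For Ensembl genes without a symbol, the factor linking FPKM to the whole-number tables was 5.55 to 13.3 times smaller than for the others. Their FPKM were divided by that ratio in each library to bring them to the scale of the others. Each library was scaled to the median of genes with FPKM of 1 or more throughout (factors 0.917 to 1.05). Genes needed FPKM of 0.1 or more in 3 libraries and a span of 300 bases. Fits used limma 3.58.1 in R 4.3.3 on log2(FPKM + 0.1), letting the variance follow mean expression, with all 9 libraries in 1 model and Benjamini-Hochberg adjustment, and were tested on simulated data. A fold change on this scale understates the change of low genes. Correlations and figures used Python 3.11.15, numpy 2.4.6, pandas 2.3.3, scipy 1.17.1 and matplotlib 3.10.9.

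The members and gene lists were chosen with earlier results of these data known. Named were all members, the 2 genes of each list with the highest mean and the 2 with the smallest p. Also named were 3 genes most like SLC2A1 and transcripts of mean FPKM of 0.5 or more. SLC2A13-AS1, with a mean of 0.434, was named outside that rule. SLC2A9, SLC2A2, SLC2A5, COL1A1, TAGLN, CYP11A1, KRT8, GDF9 and the other cell markers were named after their values were seen. Alternatives were pseudocounts of 1 and 0.01, no filter, a minimum of 1, no scaling, quantile normalization, only the 2 groups compared, the replicate block, covariates of small RNA share and of GC content, and each library left out.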

Additional observations from a re-analysis of the deposited data

How the results depend on the processing

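No SLC2A transcript was called with a pseudocount of 1, with the replicate block or without any 1 library, the settings in which transcripts were refitted. No member was called under the alternatives run except with library GC content as covariate. With it, 2 members were called in HIGH versus CON, and the counts for all genes in LOW versus CON, HIGH versus CON and HIGH versus LOW became 2, 4994 and 2 from 1, 2 and 1. That covariate gave 1 pathway gene in LOW versus CON and 19 in HIGH versus CON, where the reported counts are 0. Without a filter the counts of genes were 2, 5 and 4, quantile normalization gave 2 in LOW versus CON, a pseudocount of 0.01 gave 2 in HIGH versus LOW, and fits of only the 2 groups compared gave 1 in HIGH versus CON and 5 in HIGH versus LOW. Quantile normalization called 1 pathway gene, TXNIP, in LOW versus CON (limma adjusted p = 0.00138) and 1 in HIGH versus CON. Leaving out each library gave 0 to 4, 0 to 7 and 0 to 3 genes, and 0 to 1, 0 to 1 and 0 pathway genes; TXNIP was called without the third CON culture. Of 450 log2 fold changes of members under the 19 alternatives, 26 changed sign, in 12 of 24 gene comparisons, with each of these uncalled. The cause was not tested.

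Cells were pooled over ovaries, so the replicate numbers do not mark single animals, and whether they mark separate pools is not known. Deviations from group means correlated above 0.1 in 6 of 9 same-numbered pairs (range -0.02 to 0.49), and different-numbered pairs ran from -0.51 to 0.11. Libraries numbered 1 and those numbered 3 thus tended to vary together, while those numbered 2 did not (-0.02 to 0.01). What the numbers share is not given in the labels, so the main fit did not use them. With the replicate block, 3334 genes in HIGH versus CON and 3678 in HIGH versus LOW had unadjusted limma p below 0.05, against 1554 and 1616. With the replicate block, 2 genes were called in LOW versus CON and 4 in HIGH versus CON, of which 1 and 2 were pathway genes, TXNIP in both (limma adjusted p = 0.0231 and 0.0304) and ARRDC4 in the second (0.0191). The block called 0 members, with limma adjusted p = 0.294 for SLC2A3 and 0.350 for SLC2A8 in HIGH versus CON. Not every library correlated best with its own number. The planned fits with edgeR and DESeq2 were not run, since the tables hold no numbers of reads. SLC2A4 and SLC2A12 rest on the fewest fragments, nominally at most 18.3 and 21.4 per kilobase.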
